A study of Homo sapiens with 13 samples.

Results

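Interferon-stimulated genes are the genes that cells switch on after sensing an interferon. Here 43 of them were followed among the 62703 genes of each of 2 count tables, by matching listed symbols to the gene identifiers. By role they comprise 8 RNA sensors, 4 transcription factors, 6 genes of the ISG15 and ADP-ribosylation system, 18 antiviral effectors and 7 other interferon-induced genes. The series holds 13 RNA-seq libraries, made from OVCAR3 and SKOV3 cells, both lines grown from the ascites of patients with ovarian carcinoma. OVCAR3 cells carried the UAB peptide or a scramble control, in 2 libraries each, and all 4 had received 2000 ng/mL doxycycline for 6 days before harvest. SKOV3 cells carried RSF1 overexpression, RSF1delUAB overexpression or a control vector, in 3 libraries each, with no treatment named. RSF1 is a histone chaperone of the ISWI remodelling complex RSF, its UAB region is the stretch that binds ubiquitinated histone H2A, and RSF1delUAB is the form without that region. The labels do not say whether a line was a clone or a pool, nor whether replicates were separate cultures, so the p-values measure the spread between these libraries, which may be technical. No untreated OVCAR3 cells and no cells given interferon were analysed here.

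In the textbook pathway, viral RNA in the cytosol is detected by helicases such as RIGI and IFIH1, which signal through MAVS to kinases and interferon regulatory factors that switch on interferon genes. Secreted type I interferon binds the IFNAR receptor, and the kinases JAK1 and TYK2 phosphorylate STAT proteins, STAT2 among them, which join IRF9 to form the complex ISGF3. ISGF3 binds the interferon-stimulated response element (ISRE) in the promoters of most of these genes, whereas type II interferon acts through STAT dimers at gamma-activated sites (GAS). Many carcinoma lines are known to hold a basal level of these transcripts without added interferon.

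The promoters show which of the genes carry these sites. The RefSeq promoter table (GRCh38.p14, 250 bases before to 50 bases after each start) holds 33 of the 43 genes. The ISRE core was searched as GAAA, any 2 bases and GAAA, which reads TTTC, any 2 bases and TTTC on the other strand. The GAS core was searched as TTC, any 3 bases and GAA, which is the same on both strands. An ISRE core was present in 23 of the 33 genes (69.7%), against 4.38% of all 27305 genes in the table. A GAS core was present in 11 (33.3%), against 9.38% of all genes, and 6 held neither. A match of these letters is a description and not a shown binding site. The stretches below belong to genes that differed in one or more of the comparisons. They are written 5′ to 3′ on the strand of the gene, with the core in capitals, overlapping cores running together.

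IFI27 (chr14:94110616-94110662, plus strand): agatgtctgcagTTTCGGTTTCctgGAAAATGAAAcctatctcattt
BST2 (chr19:17405733-17405772, minus strand): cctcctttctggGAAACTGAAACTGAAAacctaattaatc
ISG15 (chr1:1013372-1013411, plus strand): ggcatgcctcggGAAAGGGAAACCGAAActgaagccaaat
IFIT1 (chr10:89392495-89392541, plus strand): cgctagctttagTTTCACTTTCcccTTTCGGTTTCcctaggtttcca
IFIT3 (chr10:89327829-89327896, plus strand): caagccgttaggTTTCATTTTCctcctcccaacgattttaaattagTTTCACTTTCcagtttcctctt
IFITM1 (chr11:313988-314021, plus strand): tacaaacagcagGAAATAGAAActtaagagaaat
IFITM3 (chr11:320874-320924, minus strand): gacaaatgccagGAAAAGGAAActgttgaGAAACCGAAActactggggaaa
OAS3 (chr12:112938319-112938352, plus strand): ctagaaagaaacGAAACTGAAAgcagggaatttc
IRF1 (chr5:132490877-132490909, minus strand): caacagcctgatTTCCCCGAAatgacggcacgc

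The last of these, from 136 to 104 bases before the start of IRF1, holds a GAS core between its flanks; its promoter held no ISRE core. IFI27, BST2, ISG15, IFIT1, IFIT3 and IFITM3 each hold 2 ISRE cores in the stretch shown, in either orientation. For IFITM1 and OAS3 the stretch shows the upstream core, and a second lies nearer the start.

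The libraries held 18160558 to 24026993 counts in OVCAR3 and 15194678 to 18748009 in SKOV3. Levels are given as CPM, the count of a gene scaled to its library's total after TMM normalisation. Every adjusted p comes from edgeR's quasi-likelihood test with Benjamini-Hochberg adjustment over all tested genes of a line, 18359 in OVCAR3 and 16735 in SKOV3, with 0.05 as the threshold. The filter on low counts kept 42 of the 43 genes in OVCAR3 (all but XAF1) and 40 in SKOV3 (all but MX2, RSAD2 and XAF1). The gene RSF1 had 631, 775 and 749.8 CPM with RSF1 and 459, 496 and 509 CPM with RSF1delUAB. With the control vector it had 42.2, 47.5 and 42.2 CPM, which checks the labels of construct and control in SKOV3. The gene's level cannot show which construct lacks the UAB region. The OVCAR3 libraries had 787 and 586 CPM with UAB, against 564 and 707 CPM with scramble. These values overlap, so the OVCAR3 labels were not checked by this gene. The 9 listed carcinoma markers summed to 8089 to 8794 CPM in OVCAR3 libraries and to 3797 to 9923 CPM in SKOV3 libraries MUC16, an ovarian carcinoma marker, had 206 to 1094 CPM in OVCAR3 libraries but 0 to 0.19 CPM in SKOV3 libraries. ERBB2, known to be amplified in SKOV3, averaged 2493 ± 339.6 CPM (SD, n = 3) with RSF1 and 7567 ± 254 CPM (SD, n = 3) with RSF1delUAB, against 8429.9 ± 358 CPM (SD, n = 3) with the control vector. Apart from IFNE, the listed interferon ligands were hardly detected. IFNA2, IFNW1, IFNG and IFNL3 had 0 counts in all 13 libraries. IFNB1 had 0 counts in all 9 SKOV3 libraries and 4 counts over the 4 OVCAR3 libraries. IFNE alone passed the filter. In SKOV3 its mean level was 6.09 CPM in control vector cells. Cells with RSF1 averaged 3.32 CPM of IFNE, and those with RSF1delUAB 3.97 CPM. IFNE was called lower in both comparisons with control, at log2 fold changes of -0.87 and -0.61.

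In OVCAR3 the interferon-stimulated genes were lower with the UAB peptide than with the scramble control. Of the 42 tested, 16 were lower (38.1%), against 5.46% of all tested genes, and 0 were higher, against 5.45%, where 10.9% of all tested genes passed in either direction. At an unadjusted p under 0.05, 26 were lower, against 12.4% of all tested genes, and 1 was higher, against 13%, and DESeq2 also called 0 higher. Their median log2 fold change was -0.55, beside 0.01 over all tested genes, and 37 of the 42 values were below 0. At least 2-fold lower were 7 genes, against 2.51% of all tested genes, and 0 were at least 2-fold higher, against 2.55%. In 32 of the 42 genes both UAB libraries lay below both scramble libraries, as in 26.7% of all tested genes, and in 2 they lay above, as in 27.4%. IFI27, OASL, OAS2, IFIT2, IRF1, BST2 and ISG15 led the fall. Of the 16 lower genes 12 are in the promoter table and 11 of these hold an ISRE core, as do 12 of the 20 that did not pass and are in it. In bulk samples, fewer cells that express a gene and less RNA per cell cannot be told apart.

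**Figure D1:**
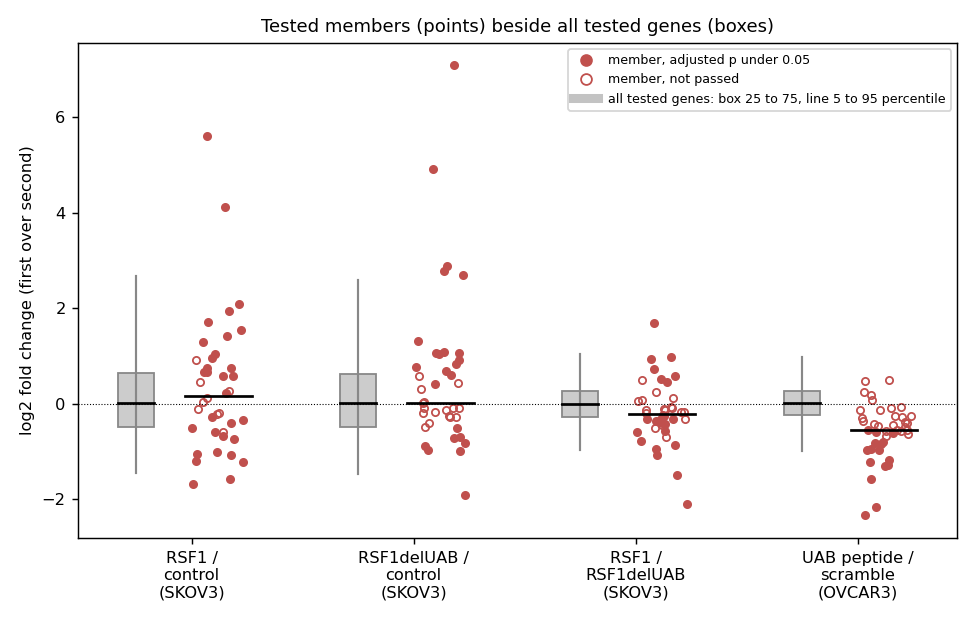
Log2 fold change (first group over second) of the tested interferon-stimulated genes in the 4 comparisons, as points, filled where the adjusted p was under 0.05, beside all tested genes, whose box runs from the 25 to the 75 percentile and whose line runs from the 5 to the 95 percentile; black bars are medians. With the UAB peptide in OVCAR3 the points lie around a median of -0.55, whereas in SKOV3 they spread to both sides of 0, with IFITM1 and IFI27 at the top.

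Among the RNA sensors in OVCAR3, 3 of 8 were lower with the UAB peptide (37.5%, against 5.46% of all tested genes) and 5 did not pass. OASL, a protein related to the 2′-5′-oligoadenylate synthetases that has no synthetase activity and enhances RIGI signalling, had 1.18 and 0.491 CPM with UAB, against 3.63 and 4.02 CPM with scramble. Its log2 fold change was -2.17 (SE 0.40, adjusted p = 0.00269). OAS2 and OAS3 make 2′-5′-oligoadenylates, a messenger of the antiviral response. OAS2 had 1.86 and 1.26 CPM with UAB, against 5.09 and 4.28 CPM with scramble, a log2 fold change of -1.58 (adjusted p = 0.00460). OAS3 had 42.2 and 29.5 CPM with UAB, against 59.7 and 66.1 CPM with scramble, a log2 fold change of -0.81 (adjusted p = 0.00579). In all 3 genes the UAB libraries lay below the scramble libraries. OAS1, the neighbour of OAS2 and OAS3 on chromosome 12, had 32.4 and 28.1 CPM with UAB, against 33.3 and 29.6 CPM with scramble, with overlapping libraries and a log2 fold change of -0.06 (adjusted p = 0.856). The helicases did not pass. IFIH1, which senses long double-stranded RNA, had 12.1 and 12.1 CPM with UAB, against 13.5 and 15.7 CPM with scramble. RIGI, which senses RNA ends carrying triphosphates, had 2.45 and 1.31 CPM with UAB, against 2.56 and 3.28 CPM with scramble. Their log2 fold changes were -0.27 and -0.63, with adjusted p-values of 0.358 and 0.308. DHX58, a helicase that modulates both of them, had 2.60 and 2.78 CPM with UAB, against 4.10 and 3.80 CPM with scramble (log2 fold change -0.56, adjusted p = 0.233). DDX60, a helicase described as a cofactor of RIGI, had 18.2 and 10.8 CPM with UAB, against 18.6 and 24.98 CPM with scramble (log2 fold change -0.58, adjusted p = 0.114). For these 4 helicases the UAB libraries lay below the scramble libraries, by less than the test required.

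Of the 4 transcription factors in OVCAR3, IRF1 was lower (25%, against 5.46% of all tested genes) and the other 3 did not pass. IRF1, which is itself induced by interferon gamma and drives many of these genes, had 6.37 and 5.02 CPM with UAB, against 14.9 and 12.9 CPM with scramble, a log2 fold change of -1.28 (SE 0.20, adjusted p = 0.000936). IRF7, the factor that amplifies type I interferon production, had 17.9 and 17.4 CPM with UAB, against 24.02 and 23.6 CPM with scramble (log2 fold change -0.43, adjusted p = 0.0858). The ISGF3 subunits differed by less. STAT2 had 81.9 and 77.4 CPM with UAB, against 62.5 and 77.9 CPM with scramble, with a log2 fold change of 0.18 (adjusted p = 0.472). IRF9 had 5.93 and 6.44 CPM with UAB, against 5.30 and 7.95 CPM with scramble, with a log2 fold change of -0.10 (adjusted p = 0.850). The libraries of the groups overlapped in both genes.

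ISG15 is a ubiquitin-like protein that HERC5 attaches to newly made proteins and USP18 removes. ISG15 had 32.9 and 33.2 CPM with UAB, against 83.6 and 66.2 CPM with scramble, a log2 fold change of -1.18 (SE 0.15, adjusted p = 0.000145). HERC5 had 8.33 and 8.35 CPM with UAB, against 17.1 and 12.7 CPM with scramble, a log2 fold change of -0.84 (adjusted p = 0.0127). Both genes were lower with the UAB peptide, and HERC5 no longer passed without scramble replicate 1 (log2 fold change -0.61, adjusted p = 0.123). Of the 6 genes of this system 33.3% were thus lower, against 5.46% of all tested genes, and the remaining 4 did not pass. USP18, which also restrains the receptor IFNAR2, had 20.8 and 23.7 CPM with UAB, against 30.4 and 27.1 CPM with scramble. HERC6, a relative of HERC5, had 11.8 and 11.5 CPM with UAB, against 16.7 and 15.6 CPM with scramble. PARP9, a partner of the ubiquitin ligase DTX3L, had 134 and 116 CPM with UAB, against 156 and 143 CPM with scramble. In all 3 the UAB libraries were below the scramble libraries. PARP14, an ADP-ribosyltransferase, had 219 and 160.3 CPM with UAB, against 214 and 254 CPM with scramble, with overlapping libraries. The log2 fold changes of the 4 ran from -0.47 for HERC6 to -0.25 for PARP9.

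Antiviral effectors, the largest role, held the most falls in OVCAR3, with 9 of 18 lower (50%, against 5.46% of all tested genes) and 9 not passing. In the other roles 16.7% to 37.5% were lower. The 4 IFIT genes, whose proteins bind viral RNA or translation factors and which lie side by side on chromosome 10, were all lower. IFIT2 had 7.89 and 6.49 CPM with UAB, against 17.1 and 18.7 CPM with scramble (log2 fold change -1.31, adjusted p = 0.000359). IFIT1 and IFIT3 fell by 0.96 and 0.97 on the log2 scale (adjusted p = 0.00330 and 0.00450). IFIT1 averaged 16.7 ± 4.46 CPM (SD, n = 2) with UAB, against 32.7 ± 2.67 CPM (SD, n = 2) with scramble. IFIT3 averaged 9.72 ± 2.48 CPM (SD, n = 2) with UAB, against 19.04 ± 0.403 CPM (SD, n = 2) with scramble. No UAB library of the 4 genes reached a scramble library. IFIT5 fell by 0.62 (adjusted p = 0.0163) and missed the threshold without UAB replicate 2 (adjusted p = 0.0629) or without scramble replicate 2 (adjusted p = 0.0526).

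BST2, the tetherin that holds budding virus at the cell surface, had 12.4 and 9.66 CPM with UAB, against 27.9 and 23.9 CPM with scramble, a log2 fold change of -1.22 (SE 0.18, adjusted p = 0.000424). MX1, a dynamin-like GTPase that blocks influenza and related viruses, averaged 32.8 ± 7.74 CPM (SD, n = 2) with UAB, against 63.6 ± 2.25 CPM (SD, n = 2) with scramble (log2 fold change -0.96, adjusted p = 0.00154). The libraries of the 2 groups did not overlap in either gene. IFITM proteins sit in membranes and hinder virus entry. IFITM1 had 17.2 and 12.2 CPM with UAB, against 26.03 and 26.1 CPM with scramble (log2 fold change -0.82, adjusted p = 0.00769). IFITM2 had 45.6 and 54.4 CPM with UAB, against 74.4 and 72.6 CPM with scramble (log2 fold change -0.56, adjusted p = 0.0189). IFITM3 had 117 and 144 CPM with UAB, against 182 and 163 CPM with scramble, and did not pass (log2 fold change -0.41, adjusted p = 0.0844). The IFITM genes are closely related paralogs, so the split of reads between them is uncertain, in SKOV3 as well. Without UAB replicate 2 the value for IFITM1 was -0.60 (adjusted p = 0.0536), and IFITM2 missed the threshold without UAB replicate 1 (log2 fold change -0.43, adjusted p = 0.171) or scramble replicate 1 (log2 fold change -0.54, adjusted p = 0.0709).

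ISG20, an exonuclease, averaged 12.1 ± 0.0755 CPM (SD, n = 2) with UAB, against 18.2 ± 1.14 CPM (SD, n = 2) with scramble (log2 fold change -0.59, adjusted p = 0.0316). It missed the threshold without UAB replicate 1, UAB replicate 2 or scramble replicate 1, with adjusted p-values of 0.108, 0.0747 and 0.162, and in DESeq2 (adjusted p = 0.0682). TRIM22, a restriction factor of the tripartite motif family, had 12.7 and 8.46 CPM with UAB, against 13.3 and 17.9 CPM with scramble (log2 fold change -0.55, adjusted p = 0.123). GBP1, a GTPase induced strongly by interferon gamma, had 52.2 and 49.6 CPM with UAB, against 79.2 and 59.7 CPM with scramble. Its relative GBP2 had 93.3 and 97.1 CPM with UAB, against 137 and 113 CPM with scramble. SAMD9L, an antiviral and growth-restraining protein, had 7.25 and 4.91 CPM with UAB, against 5.98 and 7.30 CPM with scramble. None of these 4 passed. The highest positive value among effectors was that of MX2, with a log2 fold change of 0.48 (adjusted p = 0.334). RSAD2 (viperin), SAMD9 and CMPK2 had values of 0.07, 0.24 and -0.58.

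IFI27, a mitochondrial protein widely used as an interferon marker, showed the largest fall of the 42 genes in OVCAR3. It had 21.2 and 22.05 CPM with UAB, against 123 and 95.97 CPM with scramble, a log2 fold change of -2.34 (SE 0.16, adjusted p = 5.85e-07). The other 5 tested genes of its role did not pass. IFI35 had 5.49 and 7.09 CPM with UAB, against 10.003 and 10.02 CPM with scramble (log2 fold change -0.67, adjusted p = 0.0544). IFI44 had 22.4 and 18.5 CPM with UAB, against 28.3 and 28.9 CPM with scramble (log2 fold change -0.48, adjusted p = 0.0635). IFI6, an inhibitor of apoptosis at mitochondria, had 23.8 and 23.6 CPM with UAB, against 29.7 and 27.01 CPM with scramble. For these 3 the UAB libraries lay below the scramble libraries. IFI44L, a relative of IFI44, had 43.2 and 29.7 CPM with UAB, against 35.95 and 44.3 CPM with scramble, with overlap. EPSTI1 had 16.1 and 18.8 CPM with UAB, against 12.5 and 12.1 CPM with scramble. EPSTI1 carried the highest value of all members, 0.50 (adjusted p = 0.0749), with both UAB libraries above both scramble libraries. XAF1 had 0 counts with UAB and 3 with scramble.

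**Figure D2:**
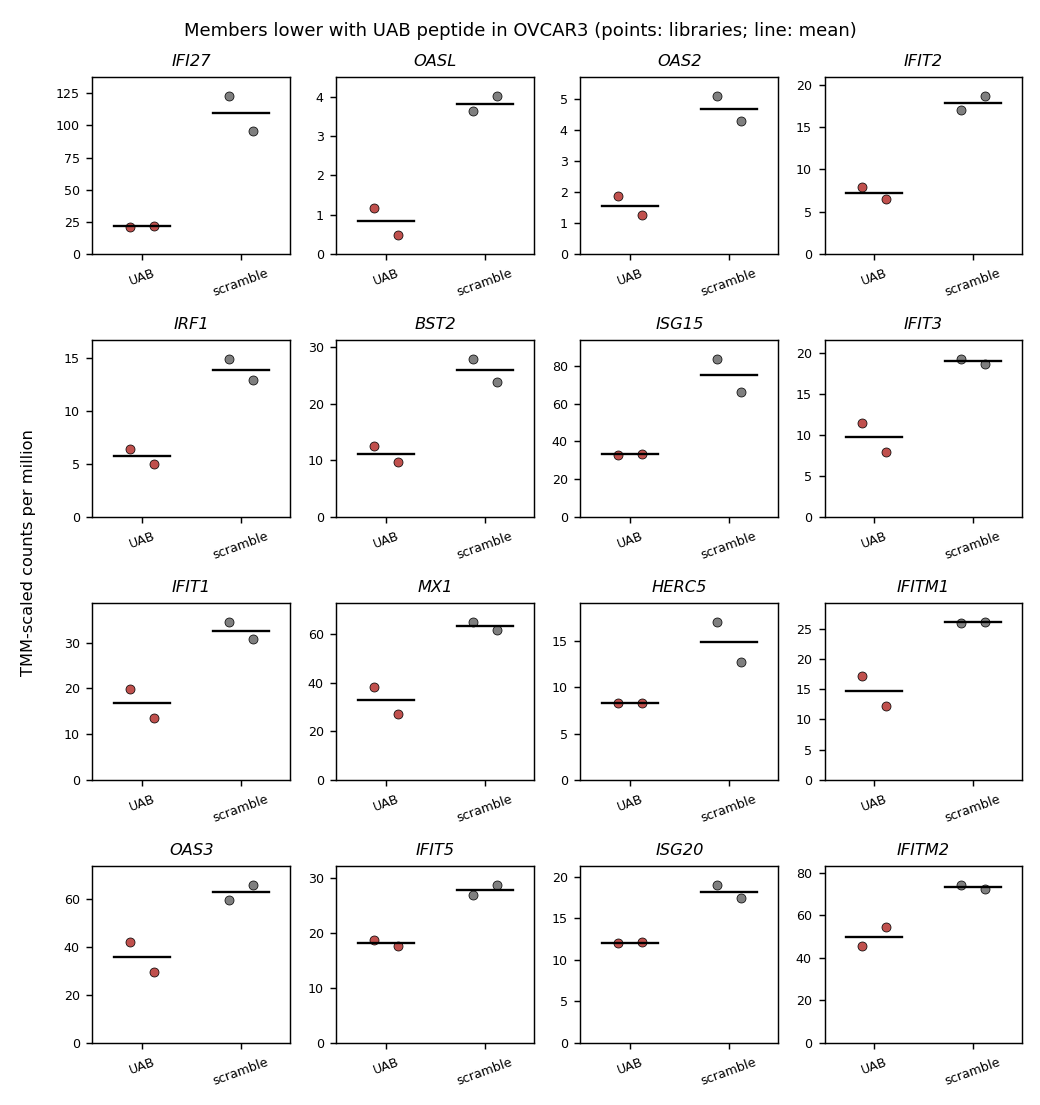
TMM-scaled CPM in each OVCAR3 library of the 16 genes that were lower with the UAB peptide, with the 2 UAB libraries left of the 2 scramble libraries and a line at each mean. In every panel both UAB points lie below both scramble points, and IFI27 shows the widest gap.

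Some immune cell markers also differed between these libraries, in either direction. The summed level of the 7 immune markers was 1.47 to 2.21 CPM with UAB, against 6.58 to 8.12 CPM with scramble. Of the 7, 2 were lower in both UAB libraries (CD14 and PTPRC), 2 were higher (NKG7 and CSF1R) and 3 overlapped. These counts are to be read beside 26.7% of all tested genes that lay below in this way and 27.4% that lay above. CD14, a monocyte marker, had 1.03 and 0.982 CPM with UAB, against 5.22 and 7.39 CPM with scramble, and CD163 and MS4A1 had 0 counts in all 4. CLEC4C, the defining marker of plasmacytoid dendritic cells, the blood cells known for interferon secretion, was also at 0, while the 4 markers listed for those cells summed to 55.4 to 68.7 CPM with UAB, against 34.1 to 45.6 CPM with scramble. Most of that sum was TCF4, a factor also made by other cells, with 64.01 and 51.03 CPM with UAB, against 28.3 and 39.02 CPM with scramble. IL3RA went the other way, with 2.65 and 3.22 CPM with UAB, against 4.53 and 5.19 CPM with scramble, and LILRA4 overlapped. The 3 endothelial markers summed to 7.26 to 8.38 CPM with UAB, against 6.44 to 6.67 CPM with scramble, and the 4 fibroblast markers to 42.3 to 54.4 CPM with UAB, against 48.9 to 49.7 CPM with scramble. The samples were cell lines, and a marker can also be expressed by the line itself. Whether other cells were present was not tested, nor any part of them in the fall.

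In SKOV3 the same genes moved to both sides, in a background where 67.3% of all tested genes passed with RSF1 and 66.6% with RSF1delUAB. With RSF1, 17 of the 40 tested genes were higher than with the control vector (42.5%, against 34.3% of all tested genes) and 14 were lower (35%, against 32.9%). With RSF1delUAB, 16 were higher (40%, against 34.5%) and 8 were lower (20%, against 32.1%). Apart from the falls with RSF1delUAB, which lay below the background share, these shares lay near it. By at least 2-fold, 9 were higher and 7 lower with RSF1, where 16.2% and 10.2% of all tested genes were, and 10 were higher and 1 lower with RSF1delUAB, where 15.7% and 9.88% were. The median log2 fold changes were 0.17 and 0.02, beside 0.02 over all tested genes in each comparison. In the promoter table, 10 of 12 genes higher with RSF1 and 8 of 12 lower with RSF1 hold an ISRE core. Both comparisons share the 3 control libraries, so their values are given side by side below. The genes that stood out were IFITM1, IFITM2, IFITM3, IFI27 and TRIM22, all higher with either construct.

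**Figure D3:**
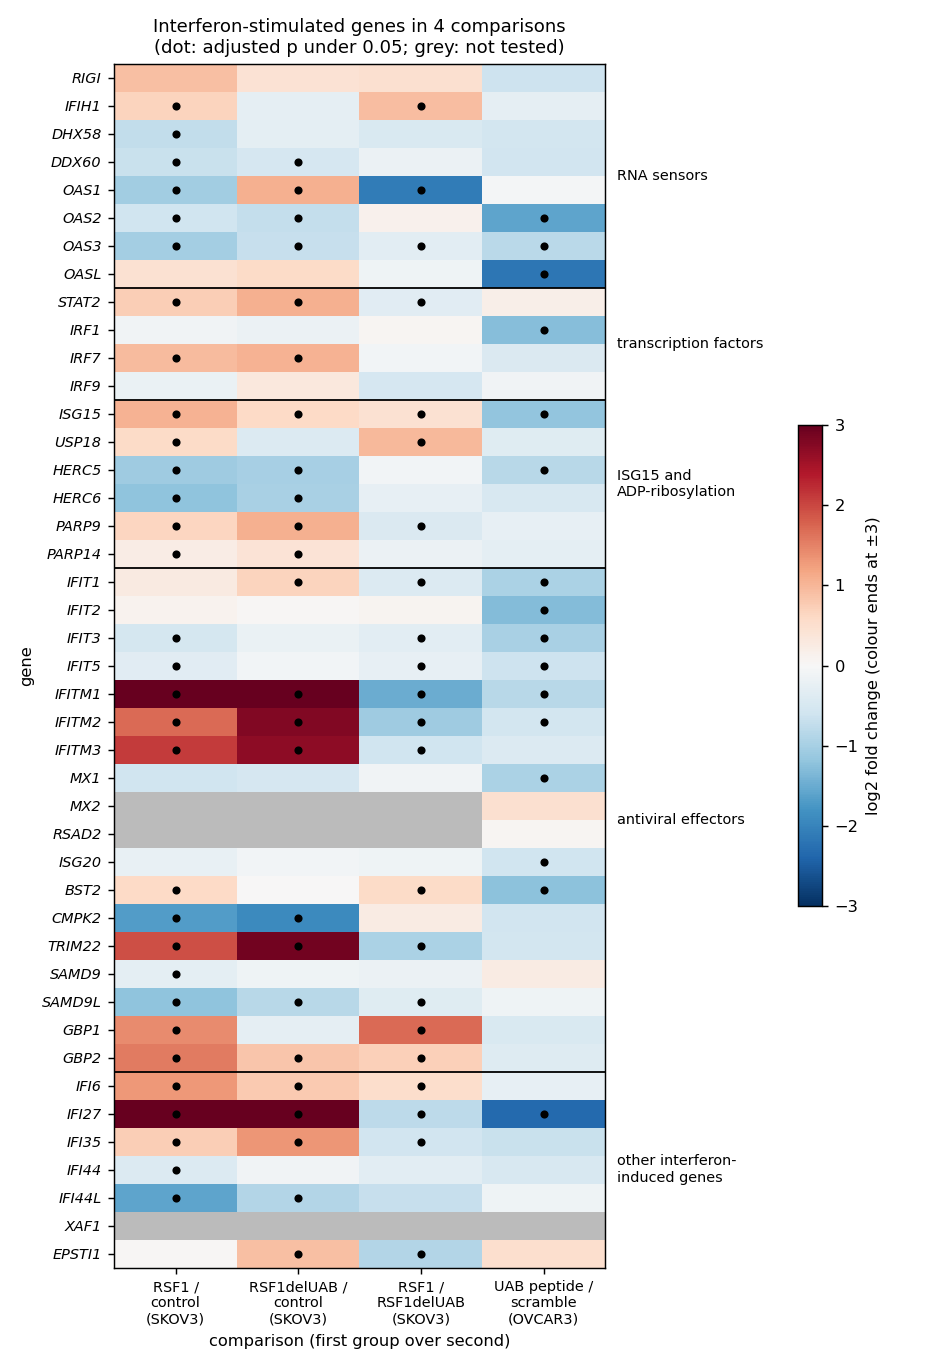
Log2 fold change (first group over second) of the 43 genes by role in the 4 comparisons, with a dot where the adjusted p was under 0.05 and grey where a gene was not tested; colours end at 3 on either side. The RSF1 and RSF1delUAB columns hold both red and blue cells, and the OVCAR3 column is mostly blue.

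Of the 8 RNA sensors in SKOV3, 5 were lower (62.5%, against 32.9% of all tested genes) and 1 higher with RSF1, and 3 were lower (37.5%, near the 32.1% of all tested genes) and 1 higher with RSF1delUAB. OAS3 had 65.1, 71.6 and 77.4 CPM with RSF1 and 87.8, 91.3 and 88.9 CPM with RSF1delUAB, against 136, 152 and 145 CPM with the control vector. Its log2 fold changes against control were -1.02 with RSF1 (adjusted p = 1.92e-10) and -0.69 with RSF1delUAB (adjusted p = 4.74e-08). OAS2, at a low level, had 3.19, 4.32 and 4.21 CPM with RSF1 and 3.62, 3.47 and 3.70 CPM with RSF1delUAB, against 5.76, 4.18 and 7.75 CPM with the control vector, log2 fold changes of -0.59 with RSF1 (adjusted p = 0.0180) and -0.72 with RSF1delUAB (adjusted p = 0.00540). Without control replicate 3 OAS2 passed with neither construct (log2 fold change -0.34, adjusted p = 0.181 with RSF1, and -0.47, adjusted p = 0.0708 with RSF1delUAB). In DESeq2 the RSF1 call for OAS2 was lost as well (adjusted p = 0.052). OAS1 went opposite ways. It had 3.13, 2.29 and 2.64 CPM with RSF1 and 13.6, 10.2 and 10.8 CPM with RSF1delUAB, against 6.68, 5.51 and 4.46 CPM with the control vector, with log2 fold changes of -1.05 with RSF1 (adjusted p = 0.000137) and 1.06 with RSF1delUAB (adjusted p = 1.26e-05). The 3 groups did not overlap. OASL had 1.4996, 0.826 and 1.19 CPM with RSF1 and 1.17, 1.16 and 1.54 CPM with RSF1delUAB, against 0.529, 0.995 and 1.03 CPM with the control vector. It passed in neither comparison.

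The helicases split, with IFIH1 higher and DHX58 and DDX60 lower with RSF1. IFIH1 had 15.5, 13.8 and 15.3 CPM with RSF1 and 7.71, 7.80 and 7.95 CPM with RSF1delUAB, against 10.8, 8.03 and 9.24 CPM with the control vector, log2 fold changes of 0.67 with RSF1 (adjusted p = 8.30e-05) and -0.26 with RSF1delUAB (adjusted p = 0.0896). RIGI, near the detection limit, had 0.782, 1.21 and 0.754 CPM with RSF1 and 0.638, 0.693 and 0.616 CPM with RSF1delUAB, against 0.463, 0.597 and 0.388 CPM with the control vector, with log2 fold changes of 0.91 with RSF1 (adjusted p = 0.0634) and 0.42 with RSF1delUAB (adjusted p = 0.407). DHX58 had 3.59, 4.13 and 3.77 CPM with RSF1 and 6.33, 4.74 and 4.62 CPM with RSF1delUAB, against 5.43, 6.17 and 7.62 CPM with the control vector, log2 fold changes of -0.74 with RSF1 (adjusted p = 0.00154) and -0.29 with RSF1delUAB (adjusted p = 0.156). For DHX58 the difference between RSF1 and RSF1delUAB did not pass (-0.45). DDX60 was lower with both constructs. It had 8.80, 13.1 and 12.01 CPM with RSF1 and 12.7, 14.04 and 11.4 CPM with RSF1delUAB, against 17.6, 17.7 and 19.1 CPM with the control vector, log2 fold changes of -0.68 with RSF1 (adjusted p = 0.000139) and -0.51 with RSF1delUAB (adjusted p = 0.00168).

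Of the 4 transcription factors in SKOV3, STAT2 and IRF7 were higher with both constructs, and IRF1 and IRF9 passed with neither. That is 50% higher, to be read beside 34.3% of all tested genes with RSF1 and 34.5% with RSF1delUAB. STAT2 had 57.05, 68.5 and 68.5 CPM with RSF1 and 77.3, 84.8 and 81.9 CPM with RSF1delUAB, against 40.6, 36.8 and 39.03 CPM with the control vector, with log2 fold changes of 0.74 with RSF1 (adjusted p = 1.41e-07) and 1.07 with RSF1delUAB (adjusted p = 5.13e-10). IRF7 had 24.2, 18.04 and 16.9 CPM with RSF1 and 22.1, 19.8 and 21.005 CPM with RSF1delUAB, against 8.87, 12.2 and 9.56 CPM with the control vector, with log2 fold changes of 0.95 with RSF1 (adjusted p = 6.07e-06) and 1.04 with RSF1delUAB (adjusted p = 1.62e-06). No construct library of either gene overlapped the controls. IRF1 had 25.5, 26.7 and 25.8 CPM with RSF1 and 23.8, 25.6 and 25.3 CPM with RSF1delUAB, against 25.4, 30.8 and 27.9 CPM with the control vector; its values were -0.11 and -0.17. IRF9, the DNA-binding subunit of ISGF3, was low in SKOV3, with 1.11, 1.21 and 1.57 CPM with RSF1 and 1.70, 2.31 and 1.54 CPM with RSF1delUAB, against 1.46, 1.53 and 1.49 CPM with the control vector; its values were -0.20 and 0.31.

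All 6 genes of the ISG15 and ADP-ribosylation system differed with RSF1, 4 higher and 2 lower, where 67.3% of all tested genes passed in either direction. With RSF1delUAB 3 were higher and 2 lower, where 66.6% of all tested genes passed. ISG15 had 25.6, 19.9 and 21.5 CPM with RSF1 and 14.8, 17.4 and 16.5 CPM with RSF1delUAB, against 9.79, 12.2 and 10.3 CPM with the control vector, with log2 fold changes of 1.05 with RSF1 (adjusted p = 2.25e-07) and 0.59 with RSF1delUAB (adjusted p = 0.000308). The ligase HERC5 moved the other way, with 57.7, 64.5 and 48.97 CPM with RSF1 and 53.8, 61.3 and 65.6 CPM with RSF1delUAB, against 119, 119 and 123 CPM with the control vector; its log2 fold changes were -1.08 with RSF1 (adjusted p = 1.86e-09) and -1.0 with RSF1delUAB (adjusted p = 5.00e-09). HERC6 had 16.4, 16.01 and 17.7 CPM with RSF1 and 20.7, 18.8 and 19.9 CPM with RSF1delUAB, against 40.5, 34.97 and 40.8 CPM with the control vector, log2 fold changes of -1.21 with RSF1 (adjusted p = 5.46e-10) and -0.97 with RSF1delUAB (adjusted p = 1.08e-08). In these 3 genes the construct libraries lay on 1 side of all control libraries. USP18 had 4.96, 4.70 and 5.09 CPM with RSF1 and 2.02, 2.83 and 2.65 CPM with RSF1delUAB, against 2.98, 3.98 and 2.97 CPM with the control vector, log2 fold changes of 0.57 with RSF1 (adjusted p = 0.0155) and -0.41 with RSF1delUAB (adjusted p = 0.0975); without control replicate 1 or 3 its adjusted p with RSF1 was 0.0612 or 0.0594. PARP9 had 41.1, 41.2 and 45.8 CPM with RSF1 and 59.8, 61.9 and 49.95 CPM with RSF1delUAB, against 26.4, 26.6 and 28.4 CPM with the control vector. PARP14 had 95.9, 130.4 and 129.8 CPM with RSF1 and 129, 139.6 and 137 CPM with RSF1delUAB, against 103, 101 and 102 CPM with the control vector. PARP9 rose by 0.65 and 1.08 on the log2 scale with RSF1 and RSF1delUAB, and PARP14 by 0.21 and 0.40. The RSF1 call for PARP14 was lost without RSF1 replicate 2 or 3 or any 1 of the control replicates, with adjusted p-values of 0.0785 to 0.161. It was also lost in DESeq2 (adjusted p = 0.0614) and with the compared groups alone in the fit (adjusted p = 0.0634). PARP9 overlaps DTX3L on the other strand, and the strand setting of the counts is not given in the sources used here.

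The IFITM genes, which lie together on chromosome 11 (IFITM1 at 310041 to 315272, IFITM2 at 303655 to 309397 and IFITM3 at 319676 to 329475), rose with both constructs, and IFITM1 showed the largest rise among the SKOV3 effectors. IFITM1 had 9.91, 7.69 and 8.99 CPM with RSF1 and 25.8, 25.5 and 22.98 CPM with RSF1delUAB, against 0.132, 0.265 and 0.129 CPM with the control vector, with log2 fold changes of 5.60 with RSF1 (adjusted p = 3.85e-13) and 7.08 with RSF1delUAB (adjusted p = 7.58e-16). The 3 control libraries together held 8 counts of it. IFITM2 had 108, 97.6 and 97.8 CPM with RSF1 and 218, 207 and 209 CPM with RSF1delUAB, against 30.8, 33.05 and 29.5 CPM with the control vector, with log2 fold changes of 1.70 with RSF1 (adjusted p = 6.96e-14) and 2.77 with RSF1delUAB (adjusted p = 4.18e-17). IFITM3, the most abundant of the 3, had 544, 427 and 461 CPM with RSF1 and 743, 696 and 721 CPM with RSF1delUAB, against 107, 110.2 and 118 CPM with the control vector, with log2 fold changes of 2.09 with RSF1 (adjusted p = 8.26e-15) and 2.68 with RSF1delUAB (adjusted p = 2.39e-16). All 3 were highest with RSF1delUAB, and no groups overlapped. TRIM22 had 13.8, 12.9 and 10.7 CPM with RSF1 and 25.9, 23.05 and 23.5 CPM with RSF1delUAB, against 2.51, 3.19 and 4.07 CPM with the control vector, with log2 fold changes of 1.93 with RSF1 (adjusted p = 1.66e-09) and 2.89 with RSF1delUAB (adjusted p = 1.33e-12).

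**Figure D4:**
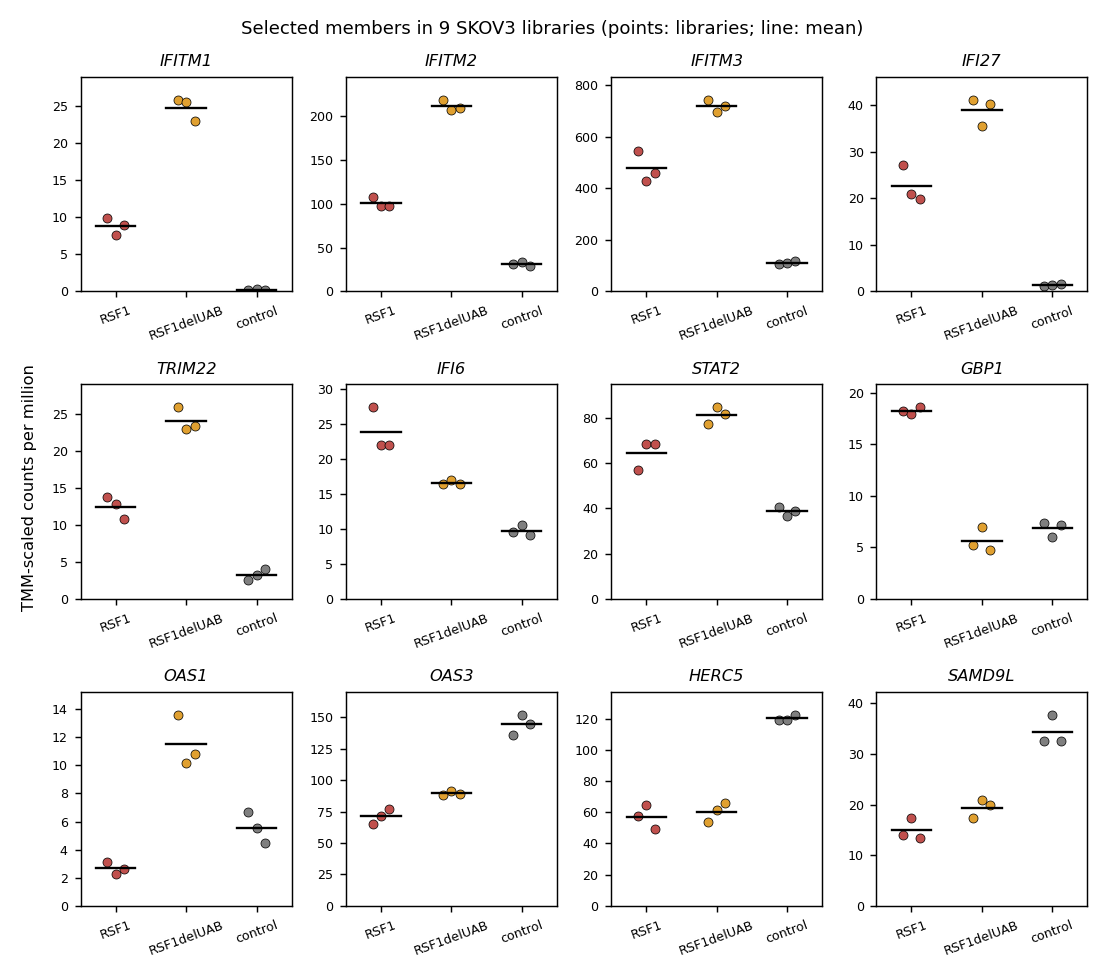
TMM-scaled CPM in the 9 SKOV3 libraries of 12 genes, with RSF1 left, RSF1delUAB in the middle and the control vector right, and a line at each mean. IFITM1, IFITM2, IFITM3, IFI27 and TRIM22 are highest with RSF1delUAB, GBP1 is high with RSF1 alone, OAS1 lies below control with RSF1 and above it with RSF1delUAB, and OAS3, HERC5 and SAMD9L lie below control with either.

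Other SKOV3 effectors moved in both directions. GBP1 had 18.3, 17.97 and 18.6 CPM with RSF1 and 5.21, 6.93 and 4.74 CPM with RSF1delUAB, against 7.34, 5.97 and 7.17 CPM with the control vector, log2 fold changes of 1.42 with RSF1 (adjusted p = 1.56e-08) and -0.28 with RSF1delUAB (adjusted p = 0.117). GBP2 had 13.5, 10.7 and 13.6 CPM with RSF1 and 8.51, 8.55 and 5.73 CPM with RSF1delUAB, against 4.17, 4.25 and 4.46 CPM with the control vector, log2 fold changes of 1.55 with RSF1 (adjusted p = 8.20e-08) and 0.83 with RSF1delUAB (adjusted p = 0.000317). BST2, the most abundant effector per kilobase in control cells, had 259, 193 and 204 CPM with RSF1 and 153, 139 and 146 CPM with RSF1delUAB, against 142, 152 and 143 CPM with the control vector, log2 fold changes of 0.59 with RSF1 (adjusted p = 5.54e-06) and 0.01 with RSF1delUAB (adjusted p = 0.956). GBP1 and BST2 thus passed against control with RSF1 and not with RSF1delUAB, and the test of that difference is given below. SAMD9L was lower with both, at 14.02, 17.3 and 13.5 CPM with RSF1 and 17.3, 20.8 and 19.9 CPM with RSF1delUAB, against 32.6, 37.8 and 32.5 CPM with the control vector, log2 fold changes of -1.20 with RSF1 (adjusted p = 8.54e-09) and -0.83 with RSF1delUAB (adjusted p = 1.02e-06). CMPK2, a mitochondrial nucleotide kinase next to RSAD2, fell by 1.68 with RSF1 and by 1.92 with RSF1delUAB on the log2 scale, at means of 1.22 ± 0.590 CPM (SD, n = 3) and 1.01 ± 0.400 CPM (SD, n = 3), against 3.89 ± 0.708 CPM (SD, n = 3) with the control vector. IFIT3, IFIT5 and SAMD9 were lower with RSF1 (-0.52, -0.35 and -0.29) and did not pass with RSF1delUAB (-0.19, -0.09 and -0.12), and for SAMD9 the difference between RSF1 and RSF1delUAB did not pass either (-0.16, adjusted p = 0.0947). IFIT1 was higher with RSF1delUAB (0.67) and did not pass with RSF1 (0.27). IFIT2, MX1 and ISG20 passed with neither, at control means of 7.10 ± 0.843 CPM (SD, n = 3), 2.999 ± 0.365 CPM (SD, n = 3) and 4.52 ± 0.583 CPM (SD, n = 3). MX2 and RSAD2 were near 0, with 1 to 2 and 5 to 14 counts over the 3 libraries of each group.

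IFI27 had 27.3, 21.02 and 19.8 CPM with RSF1 and 41.1, 35.5 and 40.2 CPM with RSF1delUAB, against 1.06, 1.33 and 1.49 CPM with the control vector, with log2 fold changes of 4.13 with RSF1 (adjusted p = 6.59e-14) and 4.91 with RSF1delUAB (adjusted p = 1.74e-15). IFI6 had 27.3, 21.98 and 21.9 CPM with RSF1 and 16.4, 16.98 and 16.3 CPM with RSF1delUAB, against 9.46, 10.5 and 9.05 CPM with the control vector, with log2 fold changes of 1.30 with RSF1 (adjusted p = 4.24e-09) and 0.78 with RSF1delUAB (adjusted p = 7.12e-06). IFI35, a partner of the interferon-induced protein NMI, had 40.03, 32.1 and 35.3 CPM with RSF1 and 57.3, 51.4 and 50.9 CPM with RSF1delUAB, against 21.97, 22.3 and 19.9 CPM with the control vector, with log2 fold changes of 0.74 with RSF1 (adjusted p = 8.21e-07) and 1.32 with RSF1delUAB (adjusted p = 1.34e-10). For these 3 genes every construct library lay above every control library. IFI44L fell, at 1.76, 1.21 and 1.70 CPM with RSF1 and 3.40, 1.79 and 2.34 CPM with RSF1delUAB, against 4.23, 4.38 and 5.43 CPM with the control vector, log2 fold changes of -1.59 with RSF1 (adjusted p = 1.88e-05) and -0.89 with RSF1delUAB (adjusted p = 0.00258). IFI44 had 10.8, 8.32 and 8.17 CPM with RSF1 and 11.96, 11.1 and 10.8 CPM with RSF1delUAB, against 13.6, 9.89 and 12.9 CPM with the control vector, log2 fold changes of -0.41 with RSF1 (adjusted p = 0.0150) and -0.10 with RSF1delUAB (adjusted p = 0.543); the RSF1 call was lost without RSF1 replicate 2 or 3 or control replicate 1 or 3, at adjusted p-values of 0.0611 to 0.0895. EPSTI1 had 2.48, 2.99 and 3.14 CPM with RSF1 and 5.37, 4.68 and 5.73 CPM with RSF1delUAB, against 2.18, 2.99 and 3.23 CPM with the control vector, log2 fold changes of 0.04 with RSF1 (adjusted p = 0.894) and 0.91 with RSF1delUAB (adjusted p = 0.000477).

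Setting RSF1 against RSF1delUAB compares constructs with and without the UAB region. Any other difference between the cells that carried them cannot be told apart from that of the construct. Within 5 Mb of DHX58, 132 of 199 tested neighbours were lower with RSF1 and 4 were higher. Of the 40 tested genes, 7 were higher with RSF1 (17.5%, against 18.5% of all tested genes) and 15 were lower (37.5%, against 20.2%), where 38.6% of all tested genes passed in either direction. The median log2 fold change was -0.22, beside 0.00 over all tested genes. The higher ones were GBP1 (1.70, adjusted p = 5.55e-09), USP18 (0.98, adjusted p = 0.000618), IFIH1 (0.93, adjusted p = 5.66e-06), GBP2 (0.72, adjusted p = 0.000772), BST2 (0.58, adjusted p = 1.96e-05), IFI6 (0.52, adjusted p = 0.000591) and ISG15 (0.46, adjusted p = 0.00338). GBP1 alone of these exceeded 2-fold, against 4.66% of all tested genes, and OAS1, IFITM1 and IFITM2 were lower by more than 2-fold, against 4.18%. The lowest value was that of OAS1 (-2.10, adjusted p = 1.77e-08), followed by IFITM1 (-1.48, adjusted p = 4.67e-09), IFITM2 (-1.07, adjusted p = 1.22e-10), TRIM22 (-0.95, adjusted p = 3.67e-06), EPSTI1 (-0.87, adjusted p = 0.00147), IFI27 (-0.78, adjusted p = 1.09e-05), IFITM3 (-0.59, adjusted p = 2.56e-06) and IFI35 (-0.57, adjusted p = 2.94e-05). PARP9, IFIT1, SAMD9L, IFIT3, STAT2, OAS3 and IFIT5 were lower by less, from -0.42 for PARP9 to -0.26 for IFIT5. DHX58 and IFI44, which passed against control with RSF1 and not with RSF1delUAB, did not pass here (-0.45 and -0.32). IFIT3 missed the threshold without RSF1delUAB replicate 3 (adjusted p = 0.0679), IFIT1 without RSF1 replicate 2 or RSF1delUAB replicate 2 or 3 (0.0520 to 0.0928), IFIT5 without RSF1 replicate 3 or any 1 of the RSF1delUAB replicates (0.0504 to 0.128) and also in DESeq2 (0.0611), with no count filter (0.0848) and with the compared groups alone (0.0599), and SAMD9L without RSF1 replicate 3 or RSF1delUAB replicate 2 or 3 (0.05 to 0.0662). RSF1 itself was also higher in these libraries, at a mean of 719 ± 76.97 CPM (SD, n = 3) with RSF1, against 488 ± 25.6 CPM (SD, n = 3) with RSF1delUAB, and the part of this level in the differences was not tested.

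Some markers of other cell types also differed between SKOV3 groups, where 67.3% of all tested genes passed with RSF1 and 66.6% with RSF1delUAB. The 4 fibroblast markers summed to 28.04 to 34.3 CPM with RSF1 and 39.8 to 46.6 CPM with RSF1delUAB, against 5.49 to 6.77 CPM with the control vector. With either construct 3 of the 4 lay above all control libraries. The share of all genes separated in this way was not computed for SKOV3, so that count shows nothing particular to these markers. PDGFRB was at 0 in the RSF1delUAB and control libraries. The 7 immune markers summed to 0.39 to 0.82 CPM with RSF1 and 0.49 to 0.64 CPM with RSF1delUAB, against 0.79 to 1.36 CPM with the control vector. The 3 endothelial markers summed to 0.20 to 0.32 CPM with RSF1 and 0.27 to 0.31 CPM with RSF1delUAB, against 1.49 to 3.72 CPM with the control vector. The 4 plasmacytoid dendritic cell markers summed to 2.58 to 3.59 CPM with RSF1 and 2.77 to 3.35 CPM with RSF1delUAB, against 6.22 to 7.63 CPM with the control vector, with CLEC4C and LILRA4 at 0 in all 9 libraries and TCF4 alone not overlapping the controls. Whether such cells were present in these cell line samples was not tested, nor any part of them in the values above.

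Each gene was also set beside its chromosomal neighbours. For each gene the median log2 fold change of the other tested genes within 5 Mb was set beside its own. These medians ran from -0.68 to 0.87 with RSF1 and from -0.61 to 0.99 with RSF1delUAB, but only from -0.17 to 0.12 with the UAB peptide in OVCAR3. The gene had the sign of its neighbours in 27 of 40 cases with RSF1, 28 of 40 with RSF1delUAB and 28 of 42 with the UAB peptide, and lay within 0.5 of their median in 20, 17 and 24. The cases that follow were chosen after their values were seen. The OAS cluster on chromosome 12 lay in a region with a median of -0.68 with RSF1, where 53 of 71 neighbours of OAS1 were lower, and of -0.30 with RSF1delUAB, whereas OAS1 itself was at -1.05 and 1.06. HERC5 (-1.08 and -1.0) and DDX60 (-0.68 and -0.51) lay among neighbours with medians of -0.61 and -0.27, and of -0.62 and -0.49. USP18 on chromosome 22 (0.57 and -0.41) had neighbours at 0.87 and 0.99, and 62 of its 78 neighbours were higher with RSF1. For IFITM1 (5.60 and 7.08) and IFI27 (4.13 and 4.91) the neighbours were at 0.46 and 0.56, and at 0.87 and 0.83, well short of the genes themselves. In RSF1 against RSF1delUAB, DHX58 (-0.45) and IFI35 (-0.57) on chromosome 17 lay among neighbours at -0.54 and -0.52. The part of these regions in the values of single genes was not tested.

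**Figure D5:**
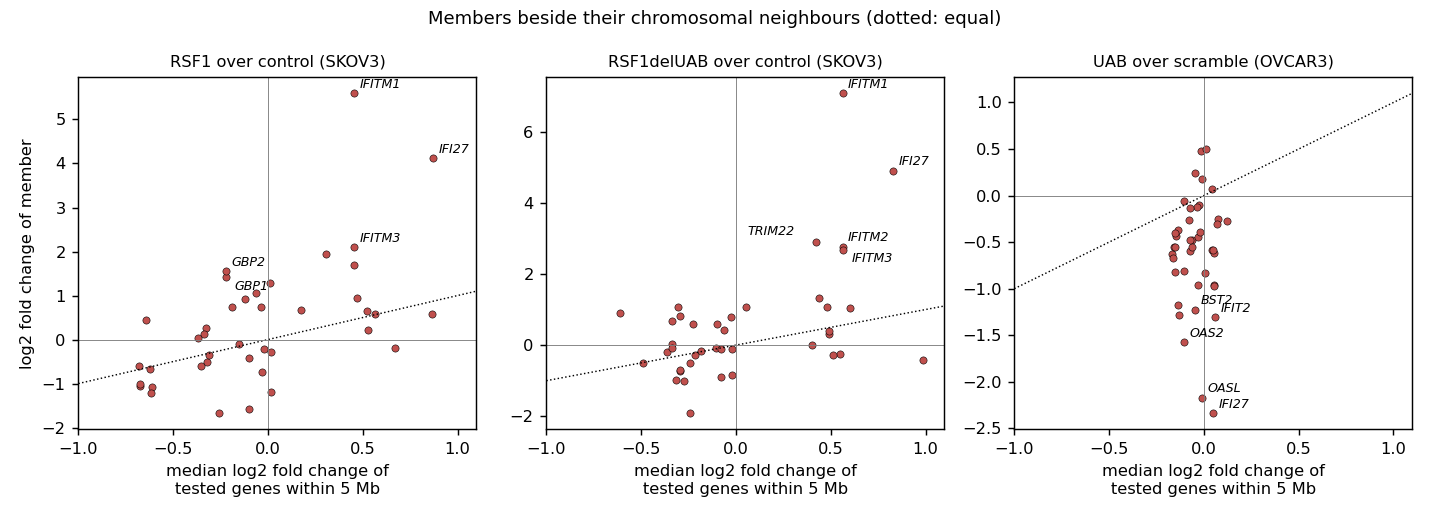
Log2 fold change of each gene (vertical axis) against the median log2 fold change of the other tested genes within 5 Mb (horizontal axis) in 3 comparisons, with a dotted line where both are equal. In SKOV3 the medians reach -0.68 and 0.99, whereas in OVCAR3 they stay between -0.17 and 0.12 while IFI27 and OASL lie below -2.

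Outside the 43, a list of 54 interferon pathway genes was followed. In OVCAR3, 42 were tested, 2 were higher with the UAB peptide (4.76%, against 5.45% of all tested genes) and 9 were lower (21.4%, against 5.46%). ZBP1, a sensor of Z-form nucleic acid, had 2.89 and 3.66 CPM with UAB, against 0.385 and 0.173 CPM with scramble (log2 fold change 3.52, adjusted p = 0.000253). IFNE, the interferon of the reproductive tract, had 3.04 and 4.64 CPM with UAB, against 1.41 and 1.99 CPM with scramble (log2 fold change 1.17, adjusted p = 0.0400). The call for IFNE was lost in DESeq2 (adjusted p = 0.118), without UAB replicate 2 (0.84, adjusted p = 0.212) and without scramble replicate 1 (0.94, adjusted p = 0.157). The lower genes with the smallest adjusted p were STING1, the adaptor of cytosolic DNA sensing, UBA7, the activating enzyme for ISG15, the adaptor TICAM1 and the receptor chain IFNGR1. STING1 had 25.2 and 26.6 CPM with UAB, against 43.8 and 45.6 CPM with scramble (log2 fold change -0.79, adjusted p = 0.00229). UBA7 had 5.34 and 6.22 CPM with UAB, against 11.9 and 10.98 CPM with scramble (log2 fold change -0.99, adjusted p = 0.00545). Together with ISG15 and HERC5, this enzyme of the ISG15 chain was thus lower with UAB. TICAM1 had 15.98 and 16.97 CPM with UAB, against 30.1 and 23.6 CPM with scramble (log2 fold change -0.71, adjusted p = 0.0132). IFNGR1 had 45.98 and 40.6 CPM with UAB, against 66.99 and 62.7 CPM with scramble (log2 fold change -0.58, adjusted p = 0.0138). No libraries overlapped in these 4 lower genes, but TICAM1 missed the threshold without scramble replicate 1 (adjusted p = 0.136), and IFNGR1 without UAB replicate 2 (adjusted p = 0.0814) or scramble replicate 1 (adjusted p = 0.0771). The count of 9 lower genes dropped to 5 without UAB replicate 1 and to 4 without scramble replicate 1.

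In SKOV3, 40 of the pathway genes were tested. With RSF1 18 were higher (45%) and 13 lower (32.5%), with RSF1delUAB 18 were higher (45%) and 15 lower (37.5%), shares to be read beside 34.3% and 32.9%, and 34.5% and 32.1%, of all tested genes. UBE2L6, the conjugating enzyme for ISG15, had 73.02, 67.6 and 73.99 CPM with RSF1 and 73.4, 72.03 and 73.6 CPM with RSF1delUAB, against 30.8, 27.9 and 31.98 CPM with the control vector, log2 fold changes of 1.24 with RSF1 (adjusted p = 1.59e-11) and 1.27 with RSF1delUAB (adjusted p = 1.03e-11). PTPN6, a phosphatase that restrains JAK signalling, had 16.8, 14.04 and 14.9 CPM with RSF1 and 19.3, 18.6 and 20.8 CPM with RSF1delUAB, against 3.64, 3.78 and 3.10 CPM with the control vector, log2 fold changes of 2.12 with RSF1 (adjusted p = 3.35e-11) and 2.48 with RSF1delUAB (adjusted p = 1.91e-12). Both genes were higher with either construct, and no construct library overlapped the controls. IFNGR1 had 123, 113 and 110.01 CPM with RSF1 and 59.6, 65.4 and 59.6 CPM with RSF1delUAB, against 43.5, 48.7 and 44.1 CPM with the control vector, log2 fold changes of 1.34 with RSF1 (adjusted p = 4.20e-12) and 0.44 with RSF1delUAB (adjusted p = 4.09e-05). It was thus highest with RSF1. TICAM1 had 23.1, 25.3 and 25.96 CPM with RSF1 and 23.2, 27.4 and 25.2 CPM with RSF1delUAB, against 48.6, 50.03 and 47.3 CPM with the control vector, log2 fold changes of -0.97 with RSF1 (adjusted p = 3.55e-09) and -0.94 with RSF1delUAB (adjusted p = 4.80e-09). It was lower with both constructs, and RSF1 against RSF1delUAB gave -0.03 (adjusted p = 0.831). STAT3, the main factor of interleukin-6 signalling, had 205, 233 and 235 CPM with RSF1 and 437, 447 and 445 CPM with RSF1delUAB, against 327, 309 and 318 CPM with the control vector, log2 fold changes of -0.50 with RSF1 (adjusted p = 6.90e-07) and 0.48 with RSF1delUAB (adjusted p = 1.25e-06). Its RSF1 libraries lay below, and its RSF1delUAB libraries above, all control libraries. Between RSF1 and RSF1delUAB, 9 were higher (22.5%, against 18.5%) and 6 lower (15%, against 20.2%), with IFNGR1 (0.91, adjusted p = 5.30e-09) and STAT3 (-0.98, adjusted p = 1.81e-10) at the ends.

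The levels can also be set side by side between the lines. The lines were counted in separate tables, scaled separately and treated differently, so no test was made. Of the 40 members tested in both lines, both OVCAR3 scramble libraries lay above all SKOV3 control libraries in CPM in 27 (67.5%), against 42.5% of the 15004 genes tested in both, and below them in 11 (27.5%), against 41.6%. Per kilobase of exon, BST2 was the most abundant member in SKOV3 control cells at 132 CPM per kilobase, followed by IFITM3 at 39.4 CPM per kilobase and HERC5 at 25.3 CPM per kilobase. With RSF1 the order began with BST2 (199 CPM per kilobase), IFITM3 (168 CPM per kilobase) and IFITM2 (62.9 CPM per kilobase), and with RSF1delUAB IFITM3 came first (253 CPM per kilobase). In OVCAR3, IFITM3 (45.8 CPM per kilobase) and ISG15 (38.2 CPM per kilobase) came first with UAB, while with scramble ISG15 came first (86.4 CPM per kilobase), before IFITM3 (60.6 CPM per kilobase). At least 10 counts were reached by 41 to 42 members per OVCAR3 library and by 37 to 40 per SKOV3 library.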

How the data were processed

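Poly-A RNA of SKOV3 (9 libraries) and OVCAR3 (4 libraries) was measured after TRIzol extraction, poly-T bead capture and random-hexamer priming, per the labels' protocols. The authors deposited raw read counts per gene, 1 table per line, per the file headers. FastQC, STAR 2.7.9a and Subread, and the builds GRCh38, hg38 and GRCm38, stand in the submitters' processing notes; for the annotation release and the strand setting, nothing is given in the sources used here. Samples were grouped by the labels, and the OVCAR3 column taken as scramble replicate 2 holds a letter with no explanation in them. A symbol was found for 62625 of the 62703 identifiers, all 43 members overlap their GENCODE 29 positions, and the record of ANK2, broken over several lines, was joined again.

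Each line was fitted alone, all its groups in 1 fit, using R 4.3.3, edgeR 4.0.16 and limma 3.58.1. Counts were scaled by TMM and filtered by filterByExpr (at least 10 counts), the prior count was 0.125, and the test was quasi-likelihood without a replicate block. Benjamini-Hochberg adjustment ran over 18359 genes in OVCAR3 (coefficient of biological variation 0.124, residual degrees of freedom 2) and 16735 in SKOV3 (0.0734 and 6). Standard errors were derived from the F statistic and the fold change. Simulated data with known fold changes were used to test the fits. Levels per kilobase divide CPM by the exon bases of a gene, and depth sets counting error only. Members and lists were chosen with earlier results of these data known. Any member may be named; values per library are given for each transcription factor and, in other roles, for the up to 8 members with the smallest adjusted p. Of the pathway list, up to 4 risen and 4 fallen genes per comparison with the smallest adjusted p are named, apart from items that are not reported here; pathway genes outside this rule were chosen after their values were seen. Alternatives were RLE scaling, DESeq2 1.42.0, no count filter, a fit of the compared groups alone, a replicate block and leaving out single replicates.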

Additional observations from a re-analysis of the deposited data

Results flagged for a closer look

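OAS1, the synthetase whose neighbours OAS2 and OAS3 were lower with both constructs, was called lower with RSF1 and higher with RSF1delUAB against the same control libraries. Its log2 fold changes were -1.05 and 1.06, and the direct test of RSF1 against RSF1delUAB gave -2.10 (edgeR's quasi-likelihood test, adjusted p = 1.77e-08, n = 3 libraries each), with all 3 RSF1 libraries below all 3 RSF1delUAB libraries. The median of the tested genes within 5 Mb of OAS1 in that comparison was -0.42.

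STAT3, of the interferon pathway list, was also called in opposite directions, at -0.50 with RSF1 and 0.48 with RSF1delUAB against control. The direct test gave -0.98 (adjusted p = 1.81e-10), and again no library overlapped.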

How the results depend on the processing

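Under RLE scaling, DESeq2, no count filter, the compared groups alone, the replicate block and each replicate left out, 0 members reversed a call, and the counts in each comparison stayed within 1.5 times those reported. Leaving out 1 library gave 15 to 17 lower members in OVCAR3, 15 to 17 higher and 12 to 14 lower with RSF1, 16 higher and 7 to 9 lower with RSF1delUAB, and 7 higher and 11 to 17 lower in RSF1 against RSF1delUAB. Over members and settings, calls were lost 12 times and gained 25 times in OVCAR3, 15 and 2 times with RSF1, 1 and 3 times with RSF1delUAB, and 14 and 7 times in RSF1 against RSF1delUAB. The OVCAR3 gains include those of a replicate block with crossed pairing, which was not planned. EPSTI1, GBP2, HERC6, IRF7, PARP9, PARP14 and USP18 were gained in OVCAR3 under that pairing alone. For the pathway list in OVCAR3, DESeq2 called 1 higher, and leaving out 1 library gave 1 to 2 higher and 4 to 7 lower. The replicate number gave no sign of pairing in SKOV3, with correlations of -0.04 to 0.07 between same-numbered libraries; with the replicate block 17 members were higher and 14 lower with RSF1, 16 and 8 with RSF1delUAB, and 7 and 16 in RSF1 against RSF1delUAB. In OVCAR3 that correlation was -0.149; the block gave 0 higher and 14 lower members, without IFITM2 and ISG20 (adjusted p = 0.0582 and 0.068), and the crossed pairing, added after the data were seen, gave 1 higher and 28 lower members and 5 higher pathway genes. With 2 libraries per OVCAR3 group and low counts of RIGI, OASL and CMPK2, small differences were not detectable.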

Other observations

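Of the 43 genes, 23 overlap the span of another gene and 21 of these overlap one on the opposite strand. Spans were taken with introns, and overlap of exons was not examined. Without the strand setting, reads from any stretch of exon shared with an opposite partner cannot be assigned with certainty. The following partners were chosen after their values were seen. DTX3L, opposite PARP9, had log2 fold changes of 0.53 with RSF1 and 0.80 with RSF1delUAB against control, -0.27 in RSF1 against RSF1delUAB and -0.32 with the UAB peptide. LIPA, a lysosomal lipase gene opposite IFIT1, IFIT2 and IFIT3, was at -0.40 with RSF1 and 0.00 with RSF1delUAB against control. In RSF1 against RSF1delUAB LIPA was at -0.40 (adjusted p = 0.000345), and with the UAB peptide at -0.31 (adjusted p = 0.194). TRIM5, opposite TRIM22, was at 0.36 and 0.97 against control, and at -0.61 in RSF1 against RSF1delUAB (adjusted p = 2.64e-06). With the UAB peptide TRIM5 was at 0.49 (adjusted p = 0.0381), whereas TRIM22 was at -0.55. Opposite IFITM3, a gene without a symbol was at 4.61 with RSF1 and 4.98 with RSF1delUAB against control. Another such gene was at 4.78 and 4.51. TMPRSS2, a protease gene opposite MX1, was at 2.48 with the UAB peptide (adjusted p = 1.70e-05), whereas MX1 was at -0.96.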
